A study of Mus musculus with 13 samples.

Results

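Monocytes that enter the liver and the macrophages they give rise to carry a set of genes that sets them apart from the resident macrophages of the liver, the Kupffer cells. The 9 genes described here were Ccr2, Cx3cr1, Ly6c2, Itgam and Chil3, used as genes of monocytes and young monocyte-derived macrophages, and Trem2, Gpnmb, Cd9 and Spp1, used as genes of lipid-associated macrophages. They belong to a set of 10 picked by symbol from the 22048 genes of the count table, with the differences between the groups below already known. Their differences between groups are therefore given as a description, without p-values. All 10 were found in the table.

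The samples were whole livers of 13 mice, each sequenced as a stranded mRNA library. There were 6 control livers labelled as not depleted of hepatic stellate cells (HSC; replicates 1, 2 and 6 male, 3, 4 and 5 female), 4 livers depleted of these cells (replicate 3 male, 1, 2 and 4 female), and 3 livers labelled as not depleted and collected 72 h after a partial hepatectomy (1 and 2 male, 3 female). Stellate cells sit between hepatocytes and the sinusoidal wall and store vitamin A. In partial hepatectomy some lobes are cut away and the remnant regrows. How the cells were depleted, whether controls received the same agent, and the strain, age and surgery of control mice are not given in the sources used here. Each library came from a separate sample, but the labels do not say how litters, cages or days were shared, so the spread between libraries is the only error available.

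In the blood of mice, classical monocytes carry the chemokine receptor encoded by Ccr2 and the surface protein encoded by Ly6c2, and they leave the bone marrow in response to chemokines that bind that receptor. Non-classical monocytes carry little Ly6C and much of the fractalkine receptor encoded by Cx3cr1. In tissue with dying cells or excess lipid, some monocyte-derived cells become lipid-associated macrophages, which depend on the lipid receptor encoded by Trem2 and are known from fatty and scarred livers.

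Library totals ran from 35360991 to 51008737 counts, and 13831 genes passed the filter on low counts. The tissue label was checked with 7 hepatocyte genes, whose summed level lay between 67471 and 174506 CPM (counts scaled to a common library size, corrected for composition) in all 13 libraries. The depletion label was checked with 10 stellate cell genes, which summed to 282 to 726 CPM in the 6 controls, 322 to 589 CPM after hepatectomy and 15.4 to 73.3 CPM after depletion. All 10 were called lower in depleted livers by edgeR, beside 15.0% of all genes, and 8 were called by DESeq2. Depleted replicate 4 stood apart with 73.3 CPM, against 15.4 to 19.1 CPM in the other 3 depleted livers. The Kupffer cell genes summed to 175 CPM in control replicate 6, against 559 to 754 CPM in the other 5 controls, and to 890, 126 and 373 CPM in hepatectomised replicates 1 to 3.

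The promoter sequence of 5 of the 9 genes is shown because 4 of them share a short motif and Chil3 had the largest difference of the 9. Each is the 250 bases before a RefSeq transcript start in GRCm38.p6, written 5′ to 3′ along the gene's strand. RefSeq windows were matched for all 9 genes. Capitals mark GAGGAAG, a core of the type bound by PU.1, the master transcription factor of monocytes and macrophages, on either strand (CTTCCTC on the other), TTCNNNGAA, of the type bound by STAT factors, or TGANTCA, of the type bound by AP-1.
Chil3 (chr3:106167565-106167814, minus strand): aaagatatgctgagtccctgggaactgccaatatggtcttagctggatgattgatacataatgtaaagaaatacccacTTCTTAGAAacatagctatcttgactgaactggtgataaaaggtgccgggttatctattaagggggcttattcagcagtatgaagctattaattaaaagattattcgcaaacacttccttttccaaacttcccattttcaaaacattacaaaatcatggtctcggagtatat
Ly6c2 (chr15:75111972-75112221, minus strand): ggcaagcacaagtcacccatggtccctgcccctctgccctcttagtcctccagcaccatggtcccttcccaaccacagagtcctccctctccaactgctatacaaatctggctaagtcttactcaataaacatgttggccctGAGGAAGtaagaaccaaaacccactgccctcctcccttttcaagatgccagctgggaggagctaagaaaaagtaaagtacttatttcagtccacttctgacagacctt
Itgam (chr7:128062390-128062639, plus strand): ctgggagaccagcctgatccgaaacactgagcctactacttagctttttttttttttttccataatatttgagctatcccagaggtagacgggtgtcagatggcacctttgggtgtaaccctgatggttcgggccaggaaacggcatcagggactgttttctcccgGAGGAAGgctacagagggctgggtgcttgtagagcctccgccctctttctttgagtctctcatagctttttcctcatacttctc
Spp1 (chr5:104434861-104435110, plus strand): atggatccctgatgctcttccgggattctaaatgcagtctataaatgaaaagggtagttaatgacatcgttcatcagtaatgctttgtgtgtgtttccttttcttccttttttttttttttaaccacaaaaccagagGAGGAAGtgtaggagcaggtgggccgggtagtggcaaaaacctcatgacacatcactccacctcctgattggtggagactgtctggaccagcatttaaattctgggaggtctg
Trem2 (chr17:48346151-48346400, plus strand): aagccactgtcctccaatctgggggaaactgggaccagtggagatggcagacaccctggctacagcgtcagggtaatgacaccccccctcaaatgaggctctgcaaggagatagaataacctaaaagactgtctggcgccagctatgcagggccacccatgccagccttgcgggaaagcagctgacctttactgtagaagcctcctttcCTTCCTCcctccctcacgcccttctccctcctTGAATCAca
GAGGAAG stood in the windows of 4 of 9 genes, Ly6c2, Itgam, Spp1 and Trem2, and in 10.61% of all 32851 windows of that length. It lay 108 bases before the first start of Ly6c2 (142 before a later start, whose window also held it 8 bases before), 84 in Itgam, 113 in Spp1 and 41 in Trem2. TTCNNNGAA was found in Chil3 alone of the 9 genes, 172 bases before its start, and in 7.02% of all windows. TGANTCA was found in Trem2 alone, 9 bases before its start, and in 6.75% of all windows, and TTGCNNAA, of the C/EBP type, in a later start of Spp1 and in 9.56% of all windows. CACGTG, the E-box used by the MITF and TFE factors of lysosomal genes, was in no window of the 9 genes and in 6.02% of all windows. The 4 genes with GAGGAAG included Ly6c2 and Itgam, called higher in depleted livers, and Spp1 and Trem2, not called. A match in these letters is a description and not a bound site.

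Of the chemokine receptors that guide monocytes, Ccr2 was higher in depleted livers, while the levels of Cx3cr1 overlapped between the groups. Ccr2 (chr9:124101950-124113557, plus strand, GRCm38) encodes the receptor for monocyte chemoattractant proteins. Its levels were 0.536, 4.57, 1.94, 2.29, 1.99 and 1.59 CPM in control replicates 1 to 6, 15.3, 10.2, 23.9 and 32.9 CPM in depleted replicates 1 to 4, and 1.15, 2.78 and 2.19 CPM in hepatectomised replicates 1 to 3. Every depleted liver was above every control and every hepatectomised liver, while hepatectomised livers lay within the controls. The log2 fold change was 3.28 ± 0.49 (SE) in depleted livers and -0.09 ± 0.54 (SE) in hepatectomised livers, both against control. In whole liver, more cells of a type and more RNA per cell cannot be told apart, here and below.

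Cx3cr1 (chr9:119901616-120069879, minus strand) encodes the fractalkine receptor. Its levels were 0.402, 2.0, 0.354, 1.15, 0.491 and 0.840 CPM in controls, 0.707, 1.03, 1.71 and 1.67 CPM in depleted livers, and 0.558, 0.814 and 1.05 CPM in hepatectomised livers. The 3 groups overlapped, and the highest library of all was control replicate 2. With depletion the log2 fold change was 0.65 ± 0.50 (SE), and with hepatectomy it was -0.10 ± 0.55 (SE). Neither was past the threshold.

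Ly6c2 (chr15:75108158-75111970, minus strand) encodes the Ly6C protein by which classical monocytes are sorted. It was at 0.214, 0.371, 0.661, 0.562, 0.632 and 0.150 CPM in controls, 27.0, 18.8, 38.7 and 30.7 CPM in depleted livers, and 0.529, 0.281 and 0.524 CPM in hepatectomised livers. The depleted livers thus lay far above both other groups, which overlapped. The mean was 28.8 ± 8.24 CPM (SD, n = 4) against 0.432 ± 0.219 CPM (SD, n = 6) in controls, a 66.7-fold ratio, and the log2 fold change was 6.03 ± 0.36 (SE), or 5.36 in females alone. With hepatectomy it was 0.12 ± 0.43 (SE). Ly6c2 shares 9.463% of its 75-base transcript stretches with its neighbour Ly6c1, so some reads may have been assigned to either gene. Markers of T and NK cells and of B and plasma cells rose in the same depleted livers. Which cells carried the RNA of Ly6c2 or Ccr2 was not tested.

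Itgam (chr7:128062640-128118491, plus strand) encodes CD11b, the alpha chain of the adhesion receptor Mac-1, found on monocytes and also on neutrophils. Its levels were 2.01, 4.13, 2.20, 1.12, 1.68 and 0.720 CPM in controls, 21.8, 17.8, 23.5 and 19.0 CPM in depleted livers, and 8.02, 4.07 and 3.79 CPM in hepatectomised livers. Depleted livers were above all others, and the highest control was above 2 of the 3 hepatectomised livers. Itgam had a log2 fold change of 3.50 ± 0.38 (SE) with depletion and 1.33 ± 0.40 (SE) with hepatectomy, the latter not past the threshold. The hepatectomy difference was past it in 4 of 16 alternatives, with DESeq2, with no sex term and without control replicate 2 or 6. Itgam shares 65.218% of its 75-base stretches with an overlapping annotated gene, Gm49368, which is not among the genes analysed here.

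Chil3 (chr3:106147554-106167564, minus strand) encodes the chitinase-like protein Ym1, which is made by alternatively activated macrophages, by classical monocytes and by immature neutrophils. It was nearly absent from controls, with 5, 12, 6, 11, 1 and 2 counts in replicates 1 to 6, or 0.0234 to 0.297 CPM. The depleted livers had 108, 141, 232 and 32.9 CPM, and the hepatectomised livers 2.47, 1.54 and 1.15 CPM. The 3 groups did not overlap, and depleted replicate 4 was the lowest of its group. The ratio of means was 854-fold with depletion (log2 fold change 9.82 ± 0.54, SE) and the log2 fold change with hepatectomy was 3.28 ± 0.57 (SE). Chil3 shares 12.951% of its stretches with Chil4 and Gm6522, but Chil4 had 0 counts in all 13 libraries.

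**Figure D1:**
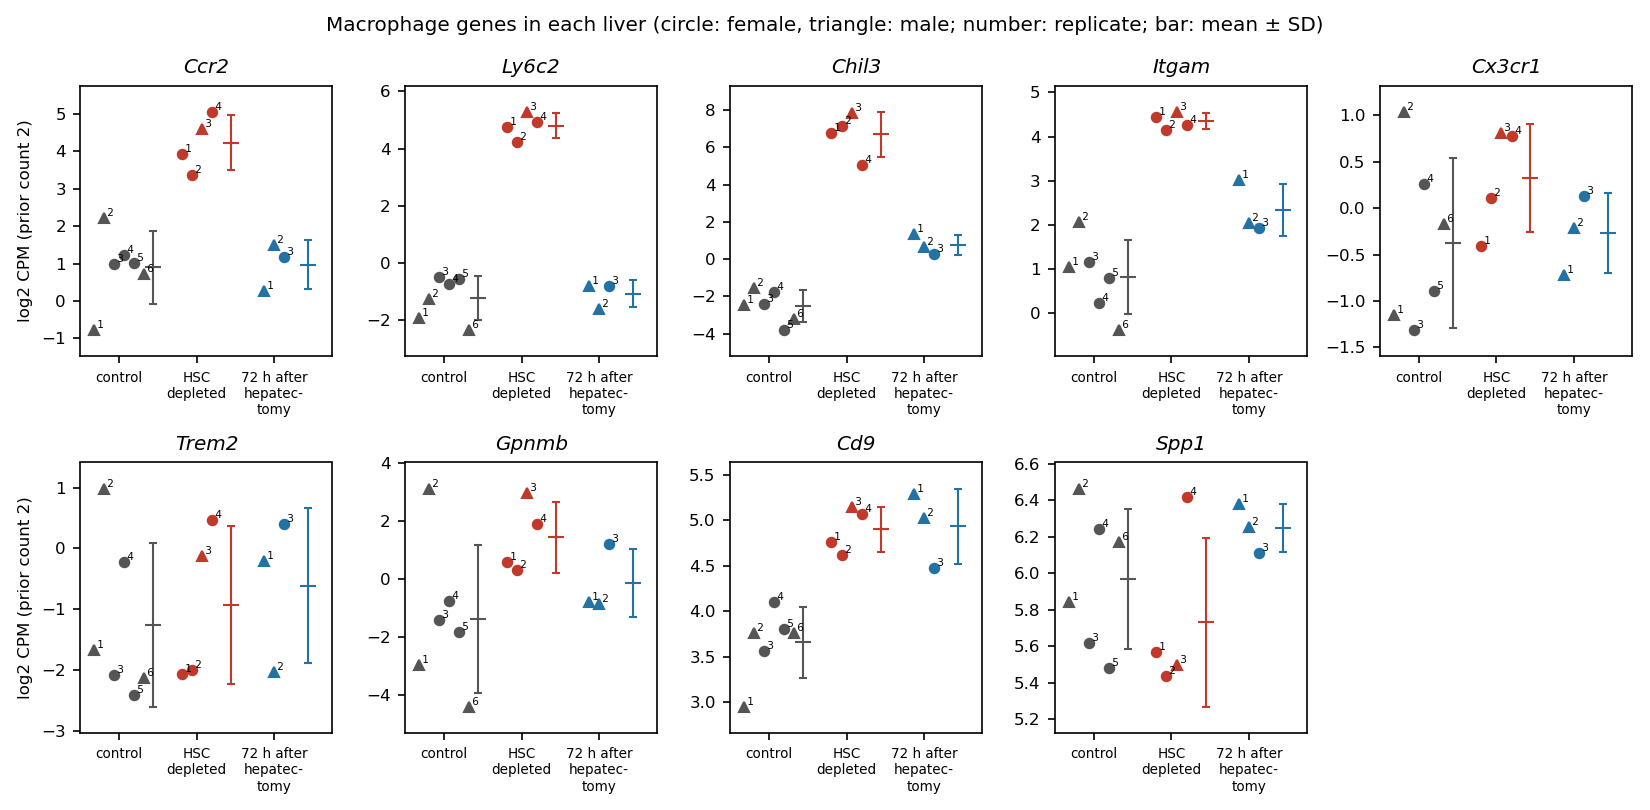
Level of each of the 9 genes in each liver, as log2 CPM with a prior count of 2 (y axis, own scale per gene), for the 6 control, 4 HSC-depleted and 3 hepatectomised livers. Circles are females, triangles males, small numbers replicates, and bars the mean ± SD. Ccr2, Ly6c2, Chil3, Itgam and Cd9 lie higher in every depleted liver than in every control, whereas Cx3cr1, Trem2, Gpnmb and Spp1 overlap.

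The genes used for lipid-associated macrophages did not move as a unit. Trem2 (chr17:48346401-48354147, plus strand), the receptor that gives these cells their name in many studies, was at 0.268, 1.93, 0.189, 0.809, 0.140 and 0.180 CPM in controls, 0.193, 0.202, 0.873 and 1.34 CPM in depleted livers, and 0.823, 0.196 and 1.27 CPM in hepatectomised livers. The groups overlapped throughout, and the highest library was a control, replicate 2. Trem2 had a log2 fold change of 0.26 ± 0.88 (SE) with depletion and 0.44 ± 0.93 (SE) with hepatectomy. With 6 to 78 counts per library and these standard errors, a change of several-fold in either direction was not detectable.

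Gpnmb (chr6:49036546-49070929, plus strand), a membrane glycoprotein of macrophages with active lysosomes, varied most among controls. They had 3, 347, 14, 24, 10 and 0 counts, or 0.0804, 8.58, 0.331, 0.539 and 0.234 CPM in replicates 1 to 5 and 0 in replicate 6, where 3 counts would be 0.0900 CPM. Depleted livers had 1.44, 1.19, 7.70 and 3.65 CPM and hepatectomised livers 0.529, 0.505 and 2.24 CPM. All 4 depleted livers were above 5 of the 6 controls and below control replicate 2. The log2 fold change was 1.65 ± 1.25 (SE) with depletion and 0.21 ± 1.45 (SE) with hepatectomy, neither past the threshold. Without control replicate 2 these were 4.05, which was called higher, and 2.29, and in females alone the depletion value was 2.49 and also called. Without hepatectomised replicate 3 the value for hepatectomy was -2.32. Control replicate 2 was also the highest control for Ccr2, Chil3, Cx3cr1, Itgam, Spp1 and Trem2.

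Cd9 (chr6:125460266-125494791, minus strand) encodes a tetraspanin found on lipid- and scar-associated macrophages and on many other cells, platelets included. Its levels were 7.69, 13.5, 11.7, 17.2, 13.9 and 13.5 CPM in controls, 27.1, 24.5, 35.4 and 33.5 CPM in depleted livers, and 39.2, 32.6 and 22.3 CPM in hepatectomised livers. Both treated groups were above every control, and they overlapped each other. Cd9 had a log2 fold change of 1.23 ± 0.21 (SE) with depletion and 1.25 ± 0.24 (SE) with hepatectomy. Directly compared, depleted and hepatectomised livers differed by -0.02 ± 0.27 (SE), or 0.31 with scaling to library size alone.

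Spp1 (chr5:104435118-104441050, plus strand) encodes osteopontin, a secreted matrix protein that is made by scar- and lipid-associated macrophages and, in healthy liver, by bile duct cells. It was at 57.3, 88.3, 49.1, 75.8, 44.6 and 72.1 CPM in controls, 47.4, 43.3, 45.1 and 85.5 CPM in depleted livers, and 83.1, 76.4 and 69.1 CPM in hepatectomised livers. The groups overlapped, and depleted replicate 4 lay apart from the other 3 depleted livers. The log2 fold change was -0.17 ± 0.24 (SE) with depletion and 0.22 ± 0.25 (SE) with hepatectomy. The difference of depleted from hepatectomised livers was -0.39 ± 0.29 (SE), and without depleted replicate 4 it was -0.66, which was called lower. Spp1 shares 8.549% of its stretches with Gm42793.

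The 9 genes can be summed up by how many were past an adjusted p of 0.05 in edgeR's quasi-likelihood test over all genes. All 9 passed the filter on low counts, but Chil3 did not pass it on controls alone. Of the 9, 5 were called higher and 0 lower in depleted livers, namely Chil3, Ly6c2, Itgam, Ccr2 and Cd9, and the same 5 had every depleted liver above every control. Of all genes tested, 18.9% were called higher, 15.0% lower, and 16.5% had every depleted liver above every control. With library size alone, 2884 genes were called higher and 1471 lower, against 2614 and 2078. In hepatectomised livers 2 of the 9, Chil3 and Cd9, were called higher and 0 lower, and both were above every control. Over all genes 6.06% were called higher, 2.36% lower, and 7.41% had every hepatectomised liver above every control. The balance of calls turned with the scaling, from 838 higher and 326 lower to 626 higher and 1566 lower with library size alone, while Chil3 (3.06) and Cd9 (1.04) were still called higher. Since these comparisons were known when the genes were chosen, nothing is read from their counts.

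The controls are shared by both comparisons, so the direct difference between the treated groups was fitted as well. Chil3, Ccr2, Ly6c2 and Itgam were called higher in depleted than in hepatectomised livers, with log2 differences of 6.54 ± 0.62, 3.37 ± 0.66, 5.91 ± 0.49 and 2.17 ± 0.48 (SE). The other 5 were not called, and 0 were lower. Over all genes, 13.3% were called higher and 10.1% lower in that comparison, which was also known when the genes were chosen. With library size alone, 3102 were called higher and 610 lower, against 1837 and 1399. DESeq2 called 5 of the 9 in depleted livers, 3 in hepatectomised livers and 4 between them. Of the 13831 genes kept, it called 5207, 1939 and 3937 in these comparisons, in either direction.

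**Figure D2:**
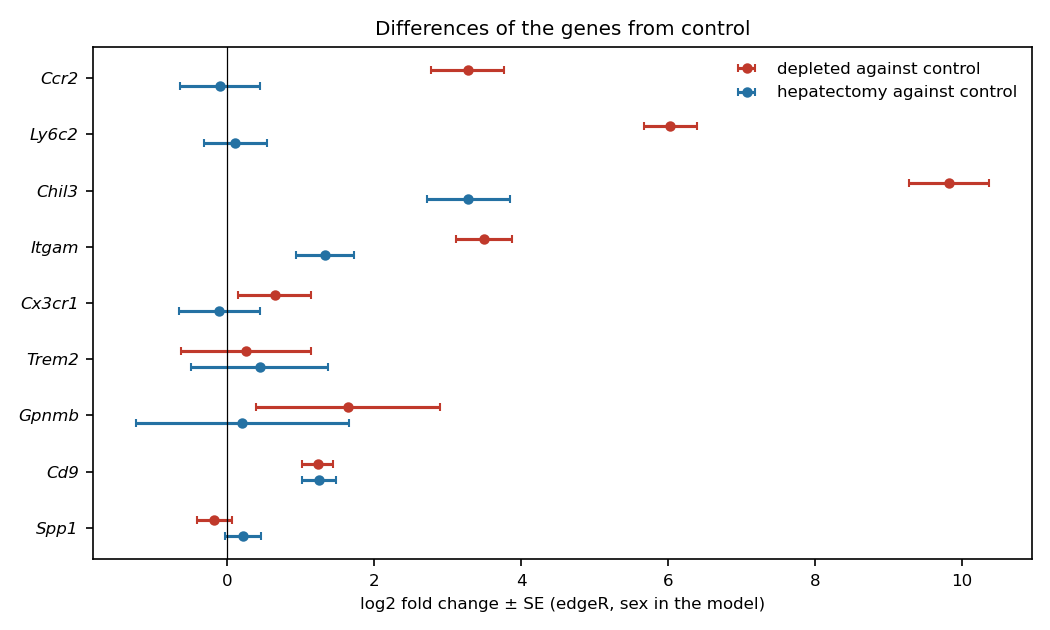
Difference of the 9 genes from control, as log2 fold change ± SE from edgeR with sex in the model (x axis), in HSC-depleted (red) and hepatectomised (blue) livers. Chil3 is at 9.82 and 3.28, Ly6c2 at 6.03 and 0.12, and Cd9 at 1.23 and 1.25. The bars of Gpnmb and Trem2 are the widest.

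Divided by gene length (RPKM, the CPM value per kilobase), the order of the genes differed between the groups. In controls Spp1 had the highest level, 39.2 ± 10.3 RPKM (SD, n = 6), followed by Cd9 at 6.32 ± 1.52 RPKM, and these 2 did not overlap each other or the remaining 7. The other 7 genes had means of 0.0922 to 0.428 RPKM, and their neighbours in that order overlapped. In depleted livers Chil3 came first at 78.7 ± 50.6 RPKM (SD, n = 4), overlapping Spp1 at 33.6 ± 12.2 RPKM, and then came Cd9 at 14.8 ± 2.53 and Ly6c2 at 10.5 ± 3.01 RPKM, which also overlapped. Spp1 did not overlap Cd9, nor Ly6c2 Itgam. Itgam at 3.22 ± 0.402 and Ccr2 at 3.22 ± 1.56 RPKM had like levels, and Gpnmb, Cx3cr1 and Trem2 followed at 0.920, 0.342 and 0.132 RPKM. In hepatectomised livers the order again opened with Spp1 at 46.2 ± 4.27 and Cd9 at 15.3 ± 4.17 RPKM (SD, n = 3), which did not overlap.

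Ratios within a library are free of its depth. The RPKM ratio of Ly6c2 to Cx3cr1, the genes high in classical and in non-classical monocytes, was 0.244 to 2.55 in the controls, 24.9 to 52.2 with depletion and 0.471 to 1.29 with hepatectomy. The depleted livers did not overlap the others, and which cells carried either RNA was not tested. The ratio of Chil3 to Ccr2 was 0.0461 to 0.979 in the controls, 3.91 to 54.2 with depletion and 2.05 to 8.44 with hepatectomy. Depleted replicate 4 gave the 3.91 and the other 3 gave 27.6 to 54.2, so that replicate had the highest Ccr2 and the lowest Chil3 of its group. It also had the lowest summed neutrophil markers of its group, 235 CPM against 315 to 439 CPM. Within that list Prtn3, Mpo, Elane and Ctsg were instead highest in this replicate, with Prtn3 at 40.7 CPM against 4.03 to 13.5 CPM.

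Sex was not used to choose the genes and could be tested in the 6 controls. Of the 8 genes of 9 that passed the filter there, 0 differed between male and female controls in edgeR's quasi-likelihood test adjusted over 13005 genes, of which 0.738% were called. At an unadjusted p under 0.05 there was 1, Ly6c2, lower in males with a log2 difference of -1.31 ± 0.49 (SE; unadjusted p = 0.0266, adjusted p = 0.328). All 3 males (0.150 to 0.371 CPM) were below all 3 females (0.562 to 0.661 CPM). Gpnmb had a log2 difference of 2.96 ± 1.92 (SE; adjusted p = 0.523), with control replicate 2, a male, far above the rest. DESeq2 also called 0 of the 8. With 3 livers of each sex, a difference of less than a few-fold was not detectable in genes that vary this much.

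Around these genes, classical monocyte genes rose together in depleted livers. Of 20 such genes outside the chosen set, 20 were called higher and 0 lower, beside 18.9% and 15.0% of all genes, with a median log2 fold change of 3.33, beside -0.03 over all genes tested. A gene that is too low in controls to pass the filter on them alone had to be higher elsewhere to be tested, which held for 4 of the 20, Ccr1 among them, and the other 16 were called as well. The most abundant were Ifitm3, an interferon-induced membrane protein, Lyz2, the lysozyme of phagocytes, and the chemokine Ccl9. Lyz2 averaged 71.8 ± 32.3 CPM (SD, n = 6) in controls and rose to 406 ± 177 CPM (SD, n = 4). Ccr1, a chemokine receptor of monocytes and neutrophils, rose by 5.59 ± 0.51 and F13a1, a coagulation factor subunit stored in monocytes, by 4.86 ± 0.46 on the log2 scale (SE).

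In hepatectomised livers 8 of the 20 were called higher, beside 6.06% of all genes, and 0 lower, with a median of 0.81 beside -0.02 over all genes. Among the 16 that passed the filter on controls alone, 5 were called. Ccr1 rose by 2.80 ± 0.52 and F13a1 by 2.36 ± 0.44 on the log2 scale (SE), Ccl9 by 0.80 and Ifitm3 by 0.52, while Lyz2 had a log2 fold change of 0.11 ± 0.63 and was not called. With the replicate number as a block, 5 were called. Without hepatectomised replicate 2 or 3 the count was 3 or 4. Between depleted and hepatectomised livers 15 of 20 were called higher in the former and 0 lower, beside 13.3% and 10.1% of all genes. Without depleted replicate 3 the count was 8. Among the 16 that passed the filter on controls alone, 12 were called in the main fit.

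Genes listed for non-classical monocytes also rose in depleted livers, while Cx3cr1, which these cells carry, overlapped between the groups. T and NK cell markers rose in the same livers, and which cells carried the RNA of the listed genes was not tested. Of 12 such genes, 9 were called higher and 0 lower in depleted livers, beside 18.9% and 15.0% of all genes, with a median of 2.12. Spn, the sialoglycoprotein CD43, rose by 4.28 ± 0.37 and Ear2, an eosinophil-type ribonuclease of monocytes, by 3.49 ± 0.53 on the log2 scale (SE). Itgal, the alpha chain of the integrin LFA-1, and Treml4, a relative of the Trem2 product, rose by 2.03 and 2.22. Cd300ld had a log2 fold change of 1.22 ± 0.59 (SE) and was not called. Without depleted replicate 3 the count was 5. In hepatectomised livers 1 of the 12 was called (8.33% of the list, near the 6.06% of all genes), Pglyrp1, a peptidoglycan-binding protein also stored in neutrophil granules, at 2.36 ± 0.66 (SE; chosen for mention after its value was seen), with a list median of -0.09. Pglyrp1 did not pass the filter on controls alone, and of the other 11, 8 were called with depletion and 0 with hepatectomy. With the replicate block, and without control replicate 1, 2, 4, 5 or 6 or any hepatectomised replicate, it was 0. Directly compared, 5 of 12 were called higher in depleted than in hepatectomised livers and 0 lower, beside 13.3% and 10.1% of all genes. The count was 8 without hepatectomised replicate 1 and 3 without depleted replicate 3. Among the 11 that passed the filter on controls alone, 4 were called in the main fit.

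The wider set of lipid-associated macrophage genes was divided. Of 24 outside the chosen set, 15 were called higher and 2 lower in depleted livers (62.5% and 8.33%, beside 18.9% and 15.0% of all genes), with a median log2 fold change of 1.07. The largest rises by the naming rule were those of Itgax, the integrin CD11c, at 3.74 ± 0.57, and Lgals3, the lectin galectin-3, at 3.42 ± 0.48 (SE). Lgals3 averaged 5.35 ± 3.18 CPM (SD, n = 6) in controls and 55.4 ± 25.1 CPM (SD, n = 4) in depleted livers, with no overlap. Ctsb, a lysosomal protease, rose by 0.52 ± 0.18 (SE), while Ctsl, another, had 0.08 ± 0.16 (SE) and was not called. The 2 that fell were Apoe, the lipoprotein that hepatocytes make in bulk, at -0.77 ± 0.18, and Lipa, the lysosomal acid lipase, at -0.61 ± 0.16 (SE).

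With hepatectomy 3 of the 24 were called higher and 0 lower, namely the fatty acid-binding proteins Fabp5 at 1.66 ± 0.40 and Fabp4 at 0.94 ± 0.22, and Ctsl at 0.62 ± 0.17 (SE). That is 12.5% of the list, beside 6.06% of all genes, and the median was 0.27. With the replicate block 0 were called, and without hepatectomised replicate 3 also 0. Without control replicate 1 or 5, or hepatectomised replicate 1, it was 1. Between the treated groups 10 were higher and 3 lower in depleted livers, 41.7% and 12.5% beside 13.3% and 10.1% of all genes.

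**Figure D3:**
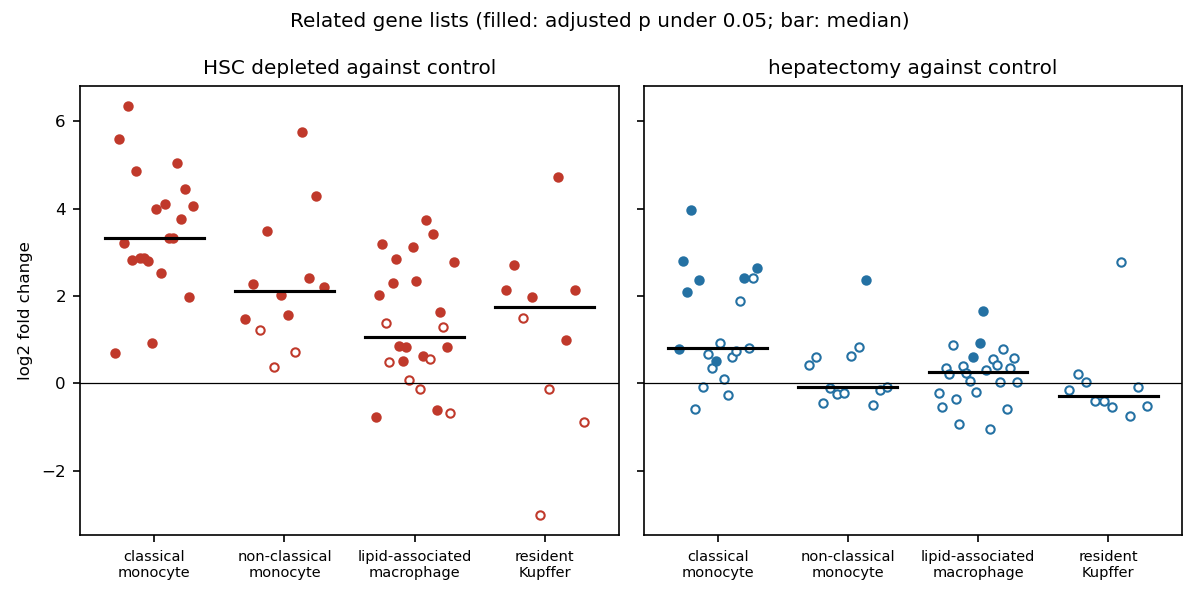
Log2 fold change of each gene of 4 lists that hold none of the 9 genes (y axis), in HSC-depleted (left) and hepatectomised (right) livers against control. Filled points have an edgeR adjusted p under 0.05 and bars are medians. The 20 classical monocyte genes are all filled on the left, with a median of 3.33, and 8 are filled on the right, with a median of 0.81.

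The ligands, receptors and signalling partners of these gene products came next. Of 22, 19 were tested, and 12 were called higher and 1 lower in depleted livers (63.2% and 5.26%, beside 18.9% and 15.0% of all genes), with a median of 2.11. Among the 17 that passed the filter on controls alone, 11 were called higher and 1 lower. Csf1r, the receptor on which macrophages depend for survival, went from 19.7 to 233 CPM in controls to 550 to 912 CPM in depleted livers, with a log2 fold change of 2.95 ± 0.49 (SE). Itgb2, the beta chain that pairs with the Itgam product in Mac-1, rose by 3.39 ± 0.46 (SE), close to the 3.50 of Itgam itself. Itgb1 and Cd81, a partner of Cd9 in the membrane, were abundant and not called, at -0.10 ± 0.10 and 0.02 ± 0.15 (SE). The gene that fell was Il34, the second ligand of the Csf1r product, from 0.660 to 1.88 CPM in controls to 0.0224 to 0.557 CPM (-2.89 ± 0.62, SE).

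The chemokines that bind the Ccr2 product were low and uneven. Ccl2 was at 0.429 to 0.914 CPM in controls, 0.814, 0.314, 3.32 and 6.17 CPM in depleted livers and 0.705, 7.02 and 1.27 CPM in hepatectomised livers. Its log2 fold change was 2.11 ± 0.77 (SE; edgeR adjusted p = 0.0515) with depletion and 2.03 ± 0.85 (SE; adjusted p = 0.17) with hepatectomy. Ccl7 had 0 to 6 counts in controls, 5, 2, 10 and 98 in depleted livers and 7, 113 and 16 in hepatectomised livers. It did not pass the filter on controls alone, and it was called higher with hepatectomy (4.83 ± 1.38, SE) and not with depletion (3.31 ± 1.24, SE). Ccl12, another of them, had 0 to 1 counts in controls, 3, 3, 11 and 42 in depleted livers and 0, 4 and 8 in hepatectomised livers. Ccl8, a related chemokine, had 0 to 3, then 7, 6, 73 and 85, then 0, 0 and 3 counts. For these 2 genes every depleted liver was above every control, and both were too low to be tested. The high libraries for Ccl2 and Ccl7 were depleted replicate 4 and hepatectomised replicate 2. Cx3cl1, the ligand of the Cx3cr1 product, was not called, at -0.26 ± 0.47 and 1.08 ± 0.49 (SE). Of the 19, 3 were called higher with hepatectomy (15.8%, beside 6.06% of all genes), Ccl7, Icam1 and Itgb3, with a median of 0.19, and 1 with the replicate block. Without hepatectomised replicate 2 the count was 0, and without control replicate 1, 2, 3, 4 or 5 it was 1. Among the 17 that passed the filter on controls alone, 2 were called with hepatectomy in the main fit, Icam1 and Itgb3.

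Arginine metabolism genes, which serve both the urea cycle and macrophage activation, went both ways with depletion. Of the 7 of 8 that passed the filter on controls alone, 2 were called higher and 2 lower, beside 18.9% and 15.0% of all genes. Nos2, the inducible nitric oxide synthase that competes for arginine in macrophages, had 0 to 2 counts in controls, 37, 23, 269 and 353 in depleted livers and 5, 37 and 5 in hepatectomised livers. It did not pass the filter on controls alone, so its calls, higher in both, add nothing to these counts. In hepatectomised livers that call was absent with the replicate block and when control replicate 1, 2, 4, 5 or 6 or hepatectomised replicate 2 or 3 was left out. The transporters Slc7a1 and Slc7a7 rose by 1.39 and 1.47, the transporter Slc7a2 fell by 0.84 and Oat, ornithine aminotransferase, fell by 2.65 on the log2 scale. With Nos2, 5 of the 8 were called, and 3 in females alone.

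Of 8 relatives of Chil3 and Ly6c2, 3 were too low to be tested. Chil1, another chitinase-like protein, with 0 to 12 counts per control, rose by 6.48 ± 0.58, Ly6c1, with 2 to 14 counts per control, by 5.14 ± 0.37, Ly6a by 4.54 ± 0.50 and Ly6e by 1.97 ± 0.23 on the log2 scale (SE). Ly6g, the neutrophil member of the family, had 0 counts in all 6 controls and 51 to 96 in depleted livers, at least 20.9-fold higher when each control is set to the level of 3 counts. Chil1, Ly6c1 and Ly6g did not pass the filter on controls alone, so their calls add nothing to their counts. Chil4, Chia1 and Chit1 had 0 to 3 counts per library and were not tested. With hepatectomy, Chil1 (4.45 ± 0.58, SE) and Ly6g were called higher, with 8, 3 and 1 counts of Ly6g. With the replicate block, and without control replicate 1 or 2 or hepatectomised replicate 1 or 2, 1 was called.

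Markers of other cells moved with these genes, and their part in the differences was not tested. Neutrophil markers, of cells that share Itgam and Chil3 with monocytes, were mostly too low in controls for a call to be read. Of 12 tested, 10 did not pass the filter on controls alone. Of the other 2, both were called higher with depletion and 1 with hepatectomy, beside 18.9% and 6.06% of all genes. Their summed level was 0.990 to 5.54 CPM in controls, 235 to 439 CPM in depleted livers and 34.0 to 101 CPM in hepatectomised livers, with 3 to 8 of 14 markers at 0 counts in each control. Prtn3, a granule protease of neutrophils, made up 65.3, 57.8 and 13.4 CPM of the sums in hepatectomised replicates 1 to 3 and 4.03 to 40.7 CPM in depleted livers. Without it the sums were 0.780 to 5.14 CPM in controls, 194 to 427 CPM in depleted livers and 20.6 to 35.7 CPM in hepatectomised livers. After hepatectomy Mpo, Elane, Ctsg, Ngp, Camp and Ltf of this list had 0 to 23 counts per library, against 537 to 2223 of Prtn3. S100a9 rose by 7.81 ± 0.45 with depletion on the log2 scale (SE). S100a8, one of the 10 and a calprotectin subunit that neutrophils and classical monocytes share, was at 0.0900 to 0.469 CPM in controls, 31.3 to 78.1 CPM in depleted livers and 3.99 to 8.94 CPM in hepatectomised livers.

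Of 10 resident Kupffer cell markers, 6 were called higher and 0 lower in depleted livers, with a median of 1.74, beside 18.9% of all genes called higher. Between the treated groups 2 of 10 were called higher, near the 13.3% of all genes. The summed level was 175 to 754 CPM in controls, 1094 to 1830 CPM in depleted livers and 126 to 890 CPM in hepatectomised livers, with no marker at 0 counts in any library. Slc40a1, the iron exporter ferroportin, rose by 1.00 ± 0.26 on the log2 scale (SE), and Cd5l, a secreted macrophage protein, had 1.49 ± 0.59 (SE) and was not called. Marco, a scavenger receptor, rose by 4.73 ± 0.79 and Cd163, the haemoglobin scavenger receptor, by 2.70 ± 0.68 on the log2 scale (SE). Clec4f, the lectin that defines mouse Kupffer cells, was at 20.3 to 165 CPM in controls and 0.236, 2.17, 3.44 and 69.5 CPM in depleted replicates 1 to 4. Its log2 fold change was -3.00 ± 1.26 (SE) and it was not called. With hepatectomy 0 of 10 were called by edgeR's quasi-likelihood test, 2 at an unadjusted p under 0.05 and 1 by DESeq2.

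T and NK cell markers were called higher in depleted livers for all 8 of 12 that passed the filter on controls alone, from 3.71 to 7.39 CPM summed in controls to 76.2 to 183 CPM. In hepatectomised livers they were at 4.46 to 7.17 CPM. Dendritic cell markers were called higher for 6 of 9 and lower for 1 in depleted livers. B and plasma cell markers were called higher for all 5 of 6 that passed on controls alone. Beside these counts, 18.9% of all genes were called higher and 15.0% lower with depletion. Cholangiocyte markers, of cells that make Spp1, summed to 6.38 to 10.4 CPM in controls, 5.14 to 16.3 CPM in depleted livers (5.14 to 6.72 CPM without depleted replicate 3, where Sox9 had 13.1 CPM) and 13.2 to 20.0 CPM in hepatectomised livers. The megakaryocyte and platelet markers, of cells that carry Cd9, summed to 2.56 to 6.99 CPM in controls, 6.56 to 25.1 CPM in depleted livers and 3.62 to 6.56 CPM in hepatectomised livers.

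**Figure D4:**
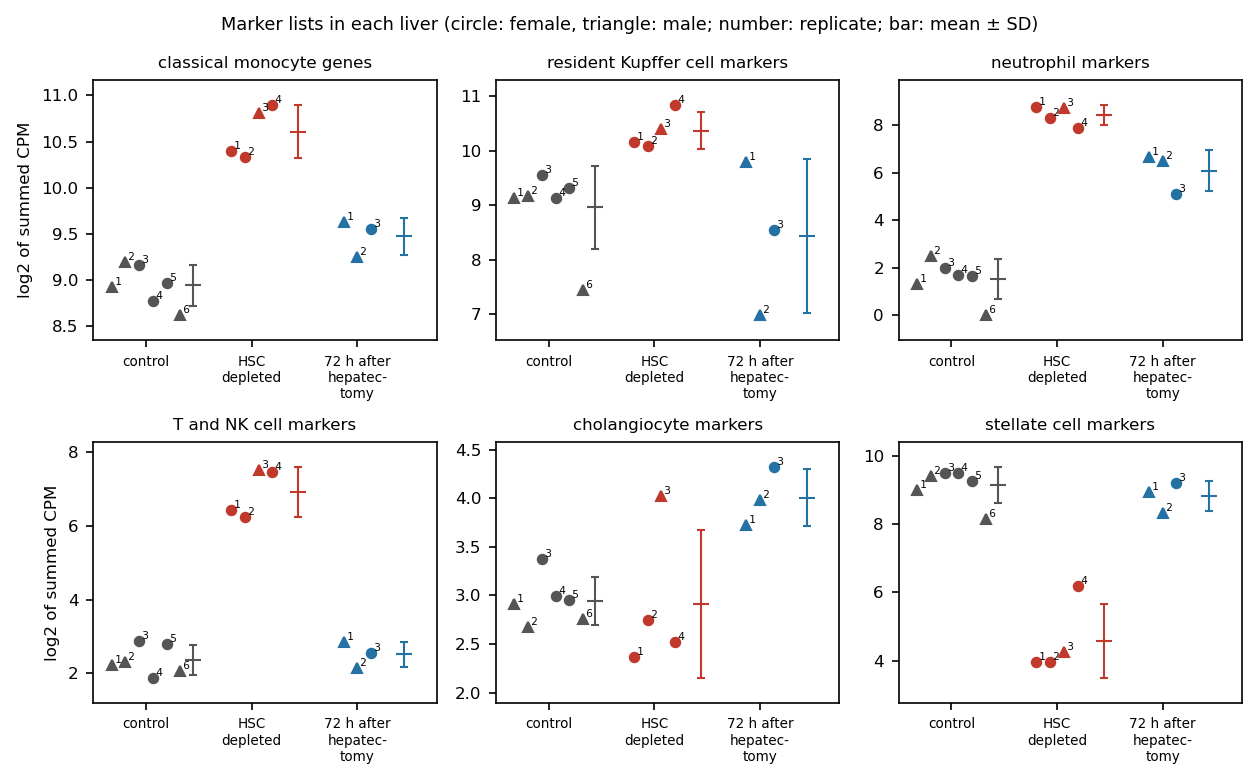
Summed level of 6 marker lists in each liver, as log2 of the summed CPM (y axis, own scale per list). Circles are females, triangles males, small numbers replicates, and bars the mean ± SD. The neutrophil sum is higher in both treated groups than in controls, the T and NK cell sum in depleted livers, and the stellate cell sum is lowest in the 4 depleted livers.

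The genes whose log2 CPM ran most alike to each of the 9 over the 13 libraries were listed among 10764 genes, as a description. These correlations carry the differences between the groups and share each library's depth. Ly6c2 ran closest to Gbp5, an interferon-induced GTPase (Pearson r = 0.994), then Cap1 and Itgb7. Chil3 ran closest to Tnfaip3 (r = 0.976), C5ar1 and Cd300lf, and Itgam to Adam15 (r = 0.978), Alox5ap and Csf3r, the receptor for granulocyte colony-stimulating factor. Ccr2 ran closest to Tap2 (r = 0.956), Cxcl10 and Sema4d. Cd9 ran closest to Kctd17 (r = 0.947) and the acute-phase genes Apcs and Lcn2. The genes that overlapped between groups had lower best values, with Gpnmb nearest to Tnfrsf21 (r = 0.841), Spp1 to Cmas (r = 0.840), Trem2 to Cd63, a lysosomal tetraspanin (r = 0.808), and Cx3cr1 to Serpina1e (r = 0.791). Serpina1e was among the 3 nearest genes for Cx3cr1, Gpnmb and Trem2.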

How the data were processed

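The authors deposited 1 table of raw read counts for 22048 genes in 13 libraries, with exon coordinates and a gene length in bases, per the file headers. The submitters' processing notes name STAR 2.7.1a, SAMtools 1.15.1, featureCounts 1.6.4 and the build mm10. The strand setting, the handling of multi-mapped reads and the annotation release are not given in the sources used here. Libraries were made from 500 ng of RNA, per the labels' protocols. Symbols and coordinates came from GENCODE M21 (GRCm38), which matched 21818 IDs, and promoters from RefSeq (GRCm38.p6).

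Counts were tested with edgeR 4.0.16 in R 4.3.3 (filterByExpr, TMM scaling, quasi-likelihood F-test, group and sex over all 13 libraries, two-sided, Benjamini-Hochberg over the 13831 genes kept, threshold 0.05), and male against female controls on the 6 controls alone. A standard error is the absolute log2 fold change divided by the square root of F. CPM are TMM-scaled, log2 CPM use a prior count of 2, RPKM divide CPM by the deposited length, and 3 counts correspond to 0.0524 to 0.0900 CPM by library. Reads carried no molecular identifiers, so such floors cover counting error only. The test was tried on simulated counts first. Libraries of a group differed by more than sampling noise, and all were kept.

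The 10 genes, the lists and the comparisons were chosen with earlier results of these data known, and 1 of the 10 is not reported here. Genes named besides the other 9 were drawn from the 3 most abundant genes of each list, its 2 largest called changes with depletion (mean log2 CPM of at least 0), lists of up to 8 genes, and the 3 most alike genes of each of the 9 (mean log2 CPM of at least 1). Not every gene that met this rule is printed. Il34, Ccl2, Ccl7, Ccl8, Ccl12, Sox9, Cx3cl1, Icam1, Itgb3, Pglyrp1, Clec4f, Lipa, Fabp4 and Fabp5 were chosen after their values were seen. So were Mpo, Elane, Ctsg, Camp and Ltf.

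Replicate numbers come from the labels and join different animals. Deviations from the group mean correlated in all 3 same-numbered pairs of hepatectomised and control livers (r = 0.107 to 0.523; each pair has 1 sex), so values with the number as a block stand beside those results where they differ. With sex removed as well, these pairs gave -0.19 to 0.08. Same-numbered pairs of depleted with control livers gave -0.34 to 0.07. Those of depleted with hepatectomised livers, each joining both sexes, gave -0.35 to -0.0012. With sex removed they gave -0.10 to 0.42 and 0.04 to 0.27, beside -0.46 to 0.28 and -0.32 to 0.16 for unlike numbers. Counts with the block for these comparisons are given below. Alternatives were no sex term, females alone, only the groups compared, other scalings, no filter, DESeq2 1.42.0, the block and leaving out each library.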

Additional observations from a re-analysis of the deposited data

Results flagged for a closer look

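In 30 groups of 4 or 6 libraries tested for a library apart from the rest (the 9 genes and 6 related lists, in controls and in depleted livers), 4 had one, where chance gives about 1.5 (1 in 20). The measure is the gap between the extreme library and the library next to it, as a share of the range of the group, on log2 CPM or the mean log2 CPM of a list. Spp1 in depleted replicate 4 (85.5 CPM, against 43.3 to 47.4 CPM in the other 3) had a gap of 0.867 of the range. Control replicate 6 was the lowest control for all 6 lists and stood apart by this measure for 3 of them, with gaps of 0.656 for the classical monocyte genes, 0.664 for the non-classical monocyte genes and 0.667 for the arginine metabolism genes. In the other 3 lists its gaps were 0.521 to 0.620. That library also had the lowest summed level of its group for Kupffer cell, neutrophil and stellate cell markers, and the part of this in the comparisons with control was not tested beyond leaving it out.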

How the results depend on the processing

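No called value of the 9 genes changed sign under the alternatives run, while values that were not called did, such as Gpnmb (-2.32 to 2.29) and Ccr2 (-0.36 to 0.42) with hepatectomy and Trem2 (-0.44 to 1.02) with depletion. Of the 9 genes, 5 with depletion, 2 with hepatectomy and 4 between these groups were called, and 5 to 6, 2 to 3 and 4 to 5 under the alternatives run. Of 431 log2 fold changes of the 9 genes under alternatives, 425 moved by less than 1 SD of the libraries, and the 6 others were of Gpnmb and Ly6c2 (5.19 between the treated groups without depleted replicate 3).

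Genes called with depletion numbered 4692, with 2614 higher and 2078 lower, against 2884 higher and 1471 lower with library size alone, 2695 in females alone and 2960 to 4817 with a library left out (2960 without depleted replicate 3, the 1 male). With the replicate number as a block 3887 were called, and the count among the 9 genes was again 5. Genes called with hepatectomy numbered 1164, against 632 with the replicate block, 2192 with library size alone, 1939 with DESeq2 and 483 to 1331 with a library left out (483 without hepatectomised replicate 2, 692 and 742 without control replicates 1 and 2). Library size alone gave 626 higher and 1566 lower with a median of -0.24 over all genes, against 838 and 326, and the direction of Chil3 and Cd9 was the same. Between depleted and hepatectomised livers 3236 were called, against 2105 with only those 2 groups and 1709 to 3850 with a library left out (1709 without depleted replicate 3), 3170 with the block, and with library size alone 3102 higher and 610 lower with a median of 0.27, against 1837 and 1399 with -0.05. Male against female controls gave 96, DESeq2 449, and 32 to 200 with a control left out (32 without replicate 1, 200 without 2, 47 without 3, 50 without 5 and 63 without 6). The cause was not tested.

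Among the lists, the classical monocyte count was 3 to 8 with hepatectomy and 8 to 15 between the treated groups with a library left out, and 5 with the replicate block with hepatectomy. The non-classical monocyte count was 5 to 10 with depletion, 0 to 1 with hepatectomy and 3 to 8 between the treated groups with a library left out, and 0 with the block and with only the 2 groups for hepatectomy. The lipid-associated count with hepatectomy was 0 with the block, 1 with library size alone and 0 to 2 with a library left out. The count of ligands, receptors and partners with hepatectomy was 1 with the block and 0 to 2 with a library left out. The arginine count was 3 in females alone with depletion; with hepatectomy it was 0 with the block, with only the 2 groups and with no filter and 0 to 1 with a library left out; between the treated groups it was 1 with no filter and 1 to 3 with a library left out (1 without depleted replicate 3 or hepatectomised replicate 1 or 3). The chitinase-like and Ly6 count with hepatectomy was 1 with the block and with only the 2 groups, and 1 to 2 with a library left out.

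At this depth Trem2, Gpnmb and Cx3cr1 had under 100 counts in most libraries, as Chil3 and Ly6c2 had in all controls and hepatectomised livers. The spread within groups was widest for Gpnmb and Trem2 (SD 1.76 and 1.30 on log2 CPM), and the part of depth in it was not tested. The block left 4 residual degrees of freedom.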
